A study of Rattus norvegicus with 12 samples.

Results

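Heat shock and chaperone genes were examined in the rat mammary gland, namely Hspa1b, Hspa5, Hspa8, Hsp90aa1, Hsp90ab1, Hspb1, Dnajb1, Hsph1, Hspd1 and Hspe1. They were chosen by name, and these 10 genes were read from the deposited table of 16511 genes. Of the 10, 9 were matched by their symbol and 1, Hspa1b, by an older symbol. The row that carries Hspa1b among its older names (Entrez 24472) is called Hspa1a in the gene table of the GRCr8 assembly. The Hspa1a and Hspa1b genes are near-identical copies, and the sources used here do not state how reads shared between them were counted. Whether the counts of this row come from a single copy or from both cannot be told, and it is called the Hspa1b row below. Another row, without a symbol in the gene table, may be the intended Hspa1b and was not used. Values given for the Hspa1b row hold for Entrez 24472 only.

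Reads were counted per gene in 12 libraries of rat mammary gland taken at PND21, with 1 gland per litter. Of these, 6 libraries came from offspring exposed before birth to a high fat butter diet (HFB) and 6 from offspring of the control AIN diet (CTL). The study's methods name the SD strain. The labels name the tissue as mammary gland and the design text speaks of snap-frozen glands, while the study's methods describe, for its expression work, epithelia cut out by laser and a high-fat diet with or without bisphenol A, which no label names. The labels were followed here. Adipocyte markers summed to at least 17395 CPM in every library and mammary epithelial markers to at most 568 CPM, so the libraries did not hold epithelium alone. The study's methods place the diets from before mating through gestation with the control diet from birth on, and the design text starts them on gestation day 1 and names PND 23 as well as birth as their end. Libraries are named by diet and library number, HFB 1 to 6 and CTL 7 to 11 and 14. The diets share no library number, so an effect of library order and an effect of diet cannot be told apart. The p-values below measure the spread between these libraries.

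Chaperones bind unfolded proteins and help them to fold, to assemble or to be degraded. HSP70 proteins work in cycles with J proteins, which deliver clients, and with nucleotide exchange factors, while HSP90 acts later on kinases and steroid receptors, and separate chaperones serve the endoplasmic reticulum and the mitochondria. In stressed cells heat shock factors act on the promoters of many of these genes, and the unfolded protein response raises those of the endoplasmic reticulum. Secretory epithelium such as that of the mammary gland relies on the latter for the proteins it exports.

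Total counts per library lay between 2320267 and 2944680. At this depth 3 counts, taken as the floor of detection, correspond to between 0.949 and 1.30 CPM (CPM puts the libraries on 1 scale, here and below with TMM factors). The floors cover counting error only, and the intervals of edgeR below also hold the spread between libraries. Each of the 10 genes had at least 13 counts in every library and passed the filter on low counts that kept 9382 genes for testing.

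A few libraries stood apart. The lymphoid list had rows for 9 of its 10 genes, and none of the 9 was at 0 in all libraries. Of the 9 genes 3 passed the filter on low counts, 31 of their 108 values were under the floor of 3 counts, and most of the 9 were under it in HFB 4, CTL 8 and CTL 11, so the lymphoid score is not resolved at its low end. The summed level of the list was 3.37 CPM in the lowest library, CTL 11, and 24.3 CPM at the median. It reached 926 CPM in HFB 6 and 955 CPM in CTL 14, and HFB 1 and HFB 2 held 292 and 120.0 CPM. Its most abundant gene was Cd79b, a subunit of the B cell receptor, with means of 52.3 CPM in HFB and 42.0 CPM in CTL. The same HFB 6 and CTL 14 had the lowest sums of the 8 adipocyte genes, 22979 and 17395 CPM against a median of 34925 CPM, and Fabp4 was the most abundant of these with means of 20128 CPM in HFB and 18996 CPM in CTL. They also had the highest sums of the endothelium list (483 and 519 CPM against a median of 199 CPM) and of the mammary epithelial list (568 and 556 CPM against 339 CPM). The red blood cell list reached 82669 CPM in HFB 2 and 51459 CPM in CTL 9 against a median of 19773 CPM. In bulk tissue, fewer cells of a type and less RNA per cell cannot be told apart. Of the mammary epithelial list, 7 of 8 genes had a row, Krt8 led with means of 113 CPM in HFB and 114 CPM in CTL, and no read was counted on Cldn3. The mean log2 CPM of a marker list, its score, did not pass a two-sided exact permutation test between the diets for skeletal muscle (p = 0.686), adipocyte (p = 0.939), mammary epithelium (p = 0.370), lymphoid (p = 0.621), red blood cell (p = 0.177) or endothelium (p = 0.305). The scores did not rank the libraries exactly as the sums did. The endothelium score was 5.65 in HFB 6, below CTL 9 (5.76) and CTL 11 (5.70). The mammary epithelium score was 5.20 in HFB 6 and 5.26 in HFB 5. CTL 14 had the highest score of both lists (6.33 and 5.35). A further pattern, in which Hspa9 was low in HFB 5, HFB 6 and CTL 14, is described with the HSP70 family.

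None of the 10 chaperone genes passed the test between the diets. In edgeR's quasi-likelihood test 0 of 10 had an adjusted p under 0.05, and 0.0% of all 9382 genes did, with 0 calls also in DESeq2 and in limma-voom. At an unadjusted p under 0.05 edgeR counted 0 of the 10 and 2.34% of all genes (220 genes, of which 122, or 1.3%, were higher and 98, or 1.04%, lower in HFB). DESeq2 counted 271 and limma-voom 613 genes at that level. The libraries of the diets overlapped for all 10 genes, while they did not overlap for 0.107% of all genes. The log2 fold changes of HFB over CTL were above 0 for 6 and below 0 for 4 of the 10, with a median of 0.03 against a median of 0.00018 over all genes tested. These counts are near the background and are no result about the chaperone genes. On the log scale the widest 95% confidence interval was that of the Hspa1b row, which allowed from 0.581-fold to 1.45-fold. That of Hspb1 allowed from 0.887-fold to 1.79-fold, and that of Hsp90ab1 allowed from 0.830-fold to 1.19-fold.

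**Figure D1:**
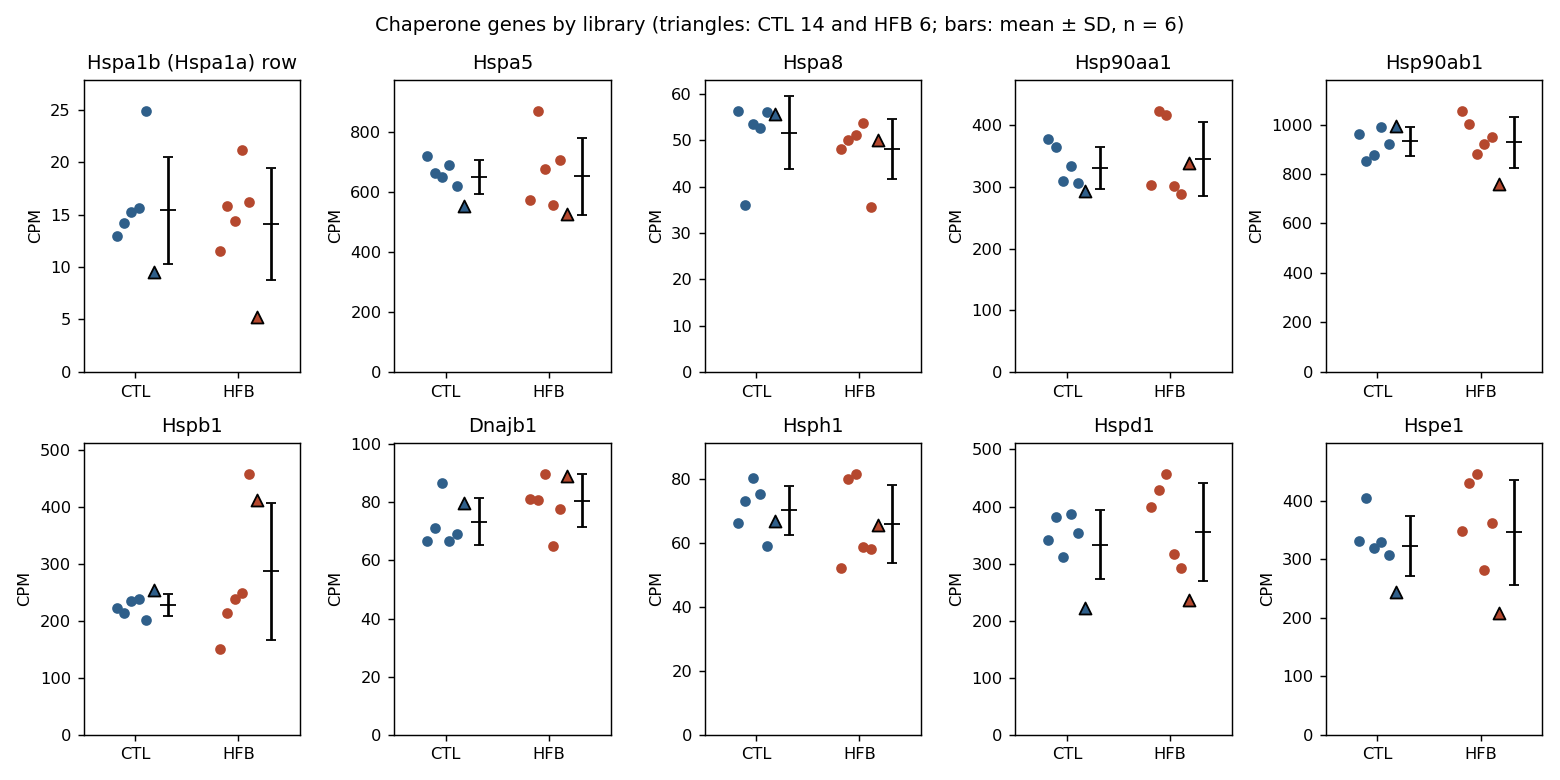
CPM (y axis, from 0) of each chaperone gene in the 6 CTL and 6 HFB libraries (x axis), 1 point per library, with the mean and SD at the right of each group. The diets overlap in every panel, HFB 5 and HFB 6 are the highest points for Hspb1 at 457 and 412 CPM, and the triangles of HFB 6 and CTL 14 are the lowest points for the Hspa1b row, Hspd1 and Hspe1.

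In the cytosolic HSP70 machinery the Hspa1b row stands for the HSP70 that stress induces. Its level in HFB was lowest at 5.21, 15.1 at the median and highest at 21.1 CPM, and in CTL 9.51, 14.7 and 24.9 CPM. The low ends were HFB 6 and CTL 14 and the high ends HFB 4 and CTL 11, so both diets spanned a wide and shared range. The means were 14.1 ± 5.34 CPM (SD, n = 6) in HFB and 15.4 ± 5.13 CPM (SD, n = 6) in CTL, and the log2 fold change was -0.12 with a standard error of 0.30 (edgeR, adjusted p = 0.999). Its sign turned without HFB 6 (0.05) and without CTL 11 (0.06), and it was -0.03 with the lymphoid score as a covariate and -0.02 in limma-voom. The row held between 13 and 59 counts per library.

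Hspa8 is the HSP70 made at all times, which also uncoats clathrin vesicles. It lay between 35.6 and 53.7 CPM in HFB with a median of 50.1 CPM, and between 36.0 and 56.3 CPM in CTL with a median of 54.6 CPM. HFB 5 and CTL 8 were far below the others of their diets, and no HFB library was above the CTL median. The log2 fold change was -0.10 with a standard error of 0.14 (edgeR, adjusted p = 0.999), and it was -0.0015 without HFB 5, HFB 6 and CTL 14, an alternative chosen after the data were seen. The level is uncertain, since the RefSeq gene table lists 33 pseudogenes named for Hspa8, with none among the rows of counts, and the sources used here do not state how reads shared with such copies were counted. The same holds for Hsp90ab1 with 23, Hspd1 with 20, Hsp90aa1 with 16 and Hspe1 with 1.

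Dnajb1 is the J protein that delivers clients to the stress HSP70. It ran from 64.8 through a median of 81.0 to 89.7 CPM in HFB and from 66.8 through 70.1 to 86.5 CPM in CTL. Of the HFB libraries 5 of 6 were above the CTL median, yet HFB 4 was the lowest of all 12. The log2 fold change was 0.13 with a standard error of 0.12 (edgeR, adjusted p = 0.999). Hsph1, an HSP110 protein that acts as a nucleotide exchange factor for HSP70, had 52.2, 62.2 and 81.5 CPM in HFB and 59.0, 70.0 and 80.4 CPM in CTL as the lowest, median and highest level. Here 2 of 6 HFB libraries exceeded the CTL median, and the log2 fold change was -0.09 with a standard error of 0.14 (edgeR, adjusted p = 0.999).

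HSP90 is made from an inducible gene, Hsp90aa1, and a constitutive gene, Hsp90ab1. Hsp90aa1 lay between 289 and 423 CPM in HFB with a median of 321 CPM, and between 294 and 378 CPM in CTL with a median of 321 CPM. HFB 2 and HFB 3 were the highest of all 12 libraries. The log2 fold change was 0.06 with a standard error of 0.14 (edgeR, adjusted p = 0.999), and -0.0041 without HFB 2. Hsp90ab1 had 761, 936 and 1054 CPM in HFB and 853, 942 and 993 CPM in CTL as the lowest, median and highest level. HFB 6 was the lowest and HFB 1 the highest of all 12. Its log2 fold change was -0.0078 with a standard error of 0.12 (edgeR, adjusted p = 0.999), and it was above 0 in 10 of 22 alternatives.

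Hspb1 is a small heat shock protein that holds unfolded proteins in large oligomers and binds actin. It was at 151 CPM in the lowest, 243 CPM at the median and 457 CPM in the highest HFB library, and at 202, 228 and 254 CPM in CTL. HFB 5 and HFB 6, at 457 and 412 CPM, lay above every other library, while HFB 1 was the lowest of the 12, and the mammary epithelial sum was 532 and 568 CPM in HFB 5 and HFB 6 and lowest, 102 CPM, in HFB 1. In CTL 14 that sum was 556 CPM with Hspb1 at 254 CPM. In CTL 11 it was 393 CPM with Hspb1 at 202 CPM, the lowest level in CTL. The spread in HFB (mean 286 ± 120 CPM, SD, n = 6) was wider than in CTL (227 ± 18.9 CPM, SD, n = 6). The log2 fold change was 0.33 with a standard error of 0.23 (edgeR, adjusted p = 0.999). This value rests on a few libraries. It was 0.15 without HFB 5, 0.20 without HFB 6, 0.46 without HFB 1 (edgeR, unadjusted p = 0.0423), 0.01 in limma-voom with quality weights, and turned to -0.06 without HFB 5, HFB 6 and CTL 14. Of the 10 genes 1 had an unadjusted p under 0.05 when HFB 1 was left out, as did 378 of all genes against 220 in the main fit.

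Hspa5, also called BiP, is the HSP70 of the endoplasmic reticulum and holds the sensors of the unfolded protein response inactive. Its lowest, median and highest level was 525, 625 and 869 CPM in HFB and 554, 656 and 720 CPM in CTL. HFB 2 was the highest and HFB 6 the lowest of the 12 libraries, and the means of 651 ± 128 CPM (SD, n = 6) in HFB and 649 ± 58.1 CPM (SD, n = 6) in CTL were close. The log2 fold change was 0.0044 with a standard error of 0.14 (edgeR, adjusted p = 0.999). The HSP90 of the same compartment, Hsp90b1, ran from 374 to 592 CPM in HFB with a median of 540 CPM, and from 535 to 657 CPM in CTL with a median of 594 CPM. No HFB library was above the CTL median of Hsp90b1, and its log2 fold change was -0.20 with a 95% confidence interval from -0.48 to 0.09 (edgeR, unadjusted p = 0.157).

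Hspd1 (HSP60) and Hspe1 (HSP10) form the barrel and the lid of the mitochondrial chaperonin. They are neighbours on chromosome 9 that are read in opposite directions. The RefSeq promoter table of GRCr8 gives 250 bases before and 50 after the start of a gene and had an entry for 9 of the 10 chaperone genes, all but Hsp90aa1. Its windows are chr9:64083988-64084287 on the minus strand for Hspd1 and chr9:64084077-64084376 on the plus strand for Hspe1. The Hspe1 window is shown because the windows of these neighbours overlap. Whether the shared stretch bears on the levels of the 2 genes was not tested. The window reads 5′ to 3′ along Hspe1, with the 211 bases that also belong to the Hspd1 window in capitals.
Hspe1: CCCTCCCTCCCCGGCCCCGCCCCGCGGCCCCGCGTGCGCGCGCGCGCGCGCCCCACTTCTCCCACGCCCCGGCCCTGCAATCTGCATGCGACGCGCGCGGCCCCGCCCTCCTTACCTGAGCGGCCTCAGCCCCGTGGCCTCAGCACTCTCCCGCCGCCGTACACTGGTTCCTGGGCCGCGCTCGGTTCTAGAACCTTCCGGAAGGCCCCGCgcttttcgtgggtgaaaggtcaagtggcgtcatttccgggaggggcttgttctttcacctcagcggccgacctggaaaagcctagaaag

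Hspd1 had 237, 358 and 457 CPM in HFB and 223, 347 and 387 CPM in CTL as the lowest, median and highest level. Hspe1 had 208, 354 and 445 CPM in HFB and 243, 324 and 404 CPM in CTL. For both genes HFB 6 and CTL 14 were the lowest libraries and HFB 3 was the highest, and the diets overlapped. The log2 fold change was 0.09 for Hspd1 and 0.10 for Hspe1, each with a standard error of 0.19 (edgeR, adjusted p = 0.999 for both).

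**Figure D2:**
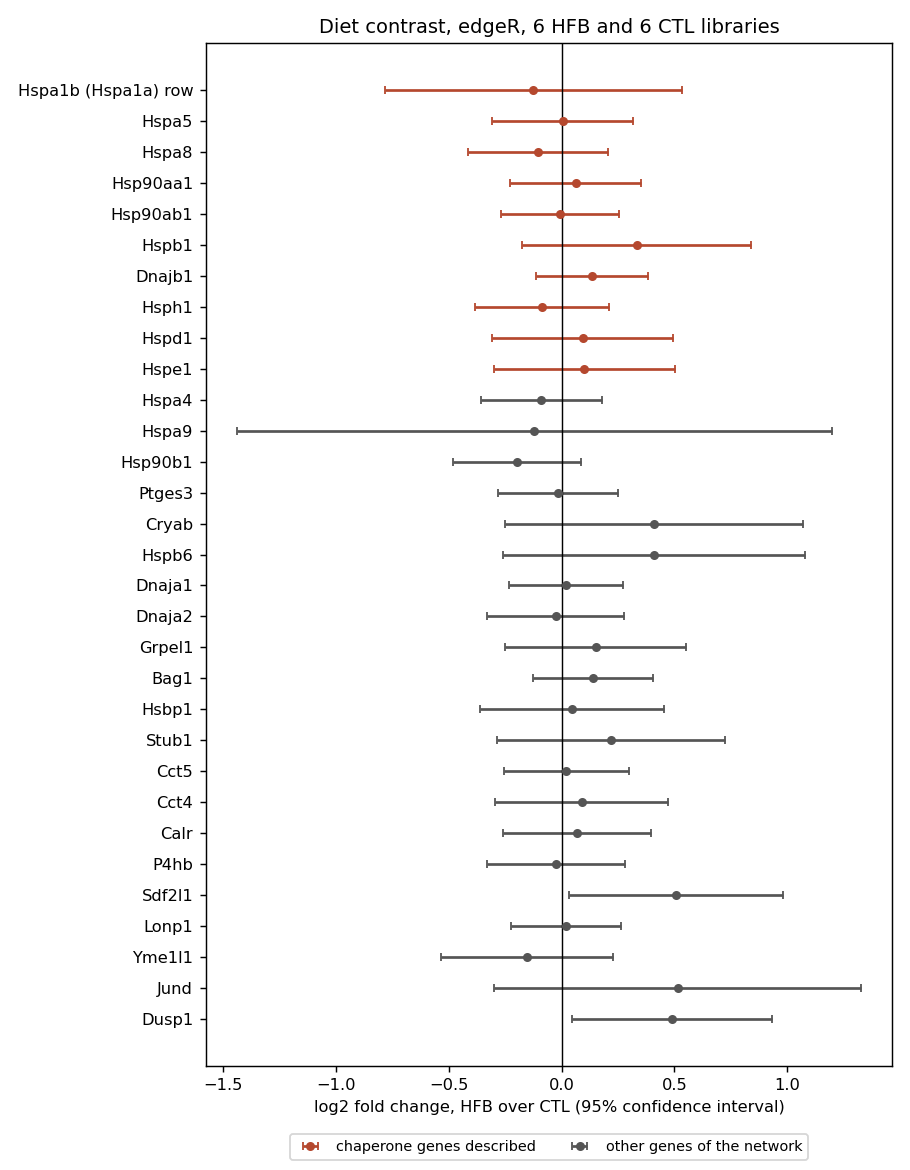
Log2 fold change of HFB over CTL (x axis) with its 95% confidence interval from edgeR for the 10 chaperone genes and for the genes of the wider network and the immediate early list named by the rule (y axis), 6 libraries per diet. Every interval of the 10 genes spans 0, and Sdf2l1 and Dusp1 have intervals above 0 before adjustment.

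The chaperone genes differed in how much they varied between glands of the same diet. The SD of log2 CPM about the diet means was 0.55 for the Hspa1b row and 0.43 for Hspb1, above 69.3% and 55.4% of the genes tested. It was 0.33 for Hspd1 and 0.33 for Hspe1, above 36.8% and 37.6% of them. The other 6 genes were among the steadier genes of the gland, with Hspa8 (0.23), Hsph1 (0.21), Hspa5 (0.21), Hsp90aa1 (0.20), Dnajb1 (0.16) and Hsp90ab1 (0.13, above 1.22% of the genes tested). These ranks are over all genes tested and were not matched for abundance. Highest and lowest library differed 4.77-fold for the Hspa1b row, 3.03-fold for Hspb1 and 1.38-fold for Hsp90ab1.

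Between glands, the pair of the mitochondrial chaperonin varied together. Over the 12 libraries Hspd1 and Hspe1 had a Pearson r of 0.87 (permutation p = 0.00043, adjusted p = 0.0252) and a Spearman rho of 0.76 (permutation p = 0.00609, adjusted p = 0.107), adjusted by Benjamini-Hochberg over 105 relations, namely 45 pairs of chaperone genes and 60 of a chaperone gene with a marker score. Without the 2 libraries farthest from the median of Hspd1, HFB 6 and CTL 14, r was 0.69 (permutation p = 0.0278, adjusted p = 0.452), and as deviations from the diet means over all 12 it was 0.87 (adjusted p = 0.0656), so neither kept the call. Without HFB 5, HFB 6 and CTL 14 r was 0.86 over 9 libraries (permutation p = 0.00367, adjusted p = 0.144). Hspa5 with Hspe1 had the same rho of 0.76 (permutation p = 0.00587, adjusted p = 0.107) and an r of 0.77 (permutation p = 0.00319, adjusted p = 0.112), which was 0.63 without the 2 farthest. The pair of Hspd1 and Hspe1 was not the closest match of either gene, since 380 genes had a higher rho with Hspd1 and 257 with Hspe1. Closest to Hspd1 were Mpc2 (rho 0.98), Car5b (0.97) and Apoo (0.97), and closest to Hspe1 were C1qbp (0.99), Emc6 (0.97) and Timm23 (0.97), each over 12 libraries.

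**Figure D3:**
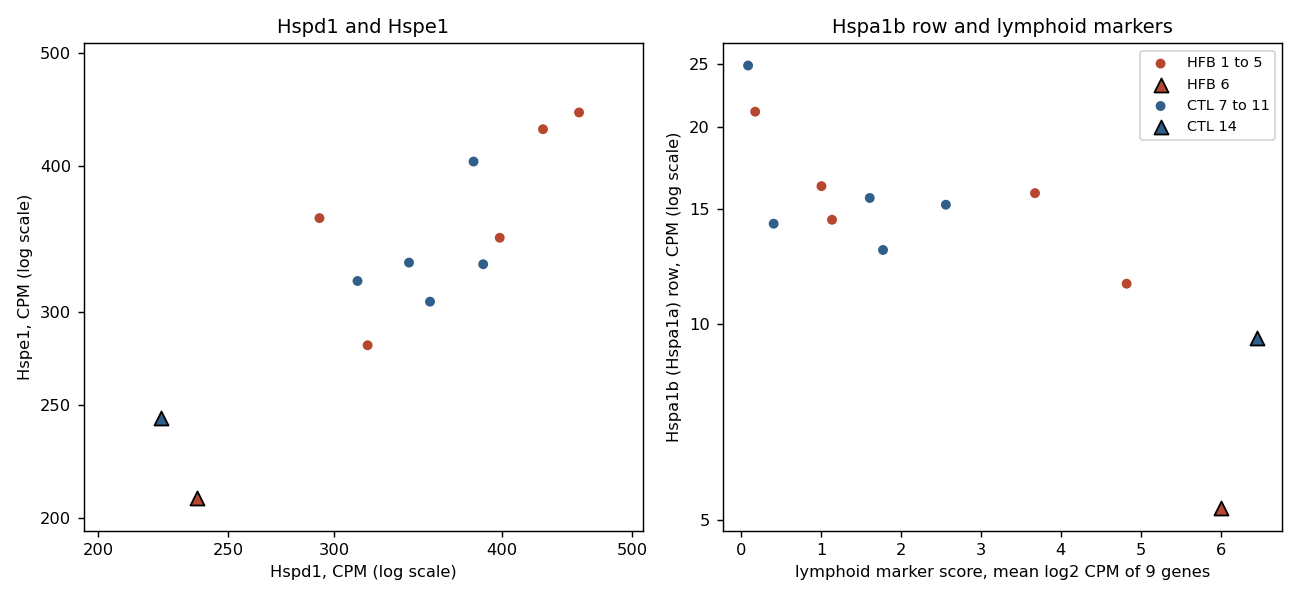
Left, Hspe1 against Hspd1, both in CPM on log axes, and right, the Hspa1b row in CPM on a log axis against the lymphoid marker score, 1 point per library. HFB 6 and CTL 14 (triangles) lie at the low end of Hspd1 and Hspe1 and at the high end of the lymphoid score, where the Hspa1b row was at 5.21 and 9.51 CPM.

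The relations among the stress-inducible genes did not pass adjustment. The Hspa1b row had an r of -0.56 with Dnajb1 (permutation p = 0.0497, adjusted p = 0.273; rho -0.45, permutation p = 0.140, adjusted p = 0.669) and of -0.34 without the 2 libraries farthest from its median. With Hsph1 its r was -0.04 (permutation p = 0.911, adjusted p = 0.962; rho -0.06, permutation p = 0.851, adjusted p = 0.941), and 0.08 without the 2 farthest. Hsp90aa1 had an r of 0.67 with Hsph1 (permutation p = 0.0188, adjusted p = 0.186; rho 0.66, permutation p = 0.0204, adjusted p = 0.234), and 0.43 without the 2 farthest, and Dnajb1 one of 0.31 with Hsph1 (permutation p = 0.328, adjusted p = 0.656; rho 0.35, permutation p = 0.268, adjusted p = 0.739). Closest to the Hspa1b row over all genes tested were Eno2 (rho 0.94), Mapkapk3 (0.93) and Fcrl2 (0.91), and closest to Dnajb1 were Tmlhe (0.87), Tmem237 (0.84) and Trim26 (0.83).

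The pair of HSP90 genes had an r of -0.15 (permutation p = 0.655, adjusted p = 0.879; rho -0.17, permutation p = 0.605, adjusted p = 0.890), and -0.34 without the 2 libraries farthest from the median of Hsp90aa1. Hsp90aa1 was nearest to Rala (rho 0.94), Gprasp3 (0.85) and Ccdc25 (0.84), and Hsp90ab1 to Gspt1 (0.85), Ppp1r18 (0.85) and Gart (0.83). In the endoplasmic reticulum, Hspa5 and Hsp90b1 had an r of 0.58 (permutation p = 0.0521, adjusted p = 0.263 over 106 relations with this one added; rho 0.55, permutation p = 0.0696, adjusted p = 0.527), and 0.47 without the 2 farthest. The r of Hspa5 with Hsp90b1 was 0.33 without HFB 6 and CTL 14 and 0.34 without HFB 5 as well, both chosen after the data were seen. Nearest to Hspa5 were Sec13 (rho 0.94), Manf (0.92) and Ptpmt1 (0.92). Of all 45 pairs of chaperone genes 7 had an r past 0.576 in either direction (15.6% against 31.8% of all pairs of genes tested), 8 had an unadjusted permutation p under 0.05, and 1, Hspd1 with Hspe1, passed adjustment. No rho passed it.

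Of the 60 relations with a marker score 1 passed adjustment, and the 10 with an unadjusted p under 0.05 are given here. An r past 0.576 in either direction was found for 16.7% of the 60 and for 22.5% of the relations of all genes tested, markers left out. The Hspa1b row was lower where lymphoid markers were higher, with an r of -0.82 (permutation p = 0.00048, adjusted p = 0.0252) and a rho of -0.77 (permutation p = 0.00496, adjusted p = 0.107). Without the 2 libraries farthest from the median score, HFB 6 and CTL 14, r was -0.65 (permutation p = 0.0433, adjusted p = 0.452), and as deviations from the diet means over all 12 it was -0.81 (adjusted p = 0.0656), so neither kept this call. The row was highest in CTL 11 (24.9 CPM) and HFB 4 (21.1 CPM), where most lymphoid genes were under the floor of 3 counts. CTL 8, where most were under it too, had 14.2 CPM. The low end of this score is therefore not resolved. The relation of the Hspa1b row with the adipocyte score had an r of 0.78 (permutation p = 0.00768, adjusted p = 0.161; rho 0.57, permutation p = 0.0553, adjusted p = 0.447), which was 0.33 without the 2 farthest. For Hspd1 with the adipocyte score r went from 0.75 (permutation p = 0.0124, adjusted p = 0.162; rho 0.20, permutation p = 0.544, adjusted p = 0.887) to -0.38 without the 2 farthest. Hspd1 with the mammary epithelium score had an r of -0.70 (permutation p = 0.0119, adjusted p = 0.162; rho -0.84, permutation p = 0.00129, adjusted p = 0.107), and -0.63 without the 2 farthest. Hsp90ab1 with the skeletal muscle score had an r of -0.75 (permutation p = 0.0044, adjusted p = 0.115; rho -0.78, permutation p = 0.00417, adjusted p = 0.107), and -0.67 without the 2 farthest. Hspa5 with the endothelium score had an r of -0.68 (permutation p = 0.0160, adjusted p = 0.186; rho -0.80, permutation p = 0.00287, adjusted p = 0.107), and Hspb1 with the mammary epithelium score one of 0.65 (permutation p = 0.0243, adjusted p = 0.212; rho 0.66, permutation p = 0.0222, adjusted p = 0.234), which were -0.68 and 0.51 without the 2 farthest. As deviations from the diet means these 2 were -0.73 (adjusted p = 0.0791) and 0.80 (adjusted p = 0.113). Hspe1 had an r of 0.75 with the adipocyte score (permutation p = 0.0100, adjusted p = 0.162; rho 0.38, permutation p = 0.227, adjusted p = 0.739). With endothelium its r was -0.66 (permutation p = 0.0195, adjusted p = 0.186; rho -0.67, permutation p = 0.0202, adjusted p = 0.234). These values of r were -0.05 and -0.63 without the 2 farthest. Hspd1 had an r of -0.59 with endothelium (permutation p = 0.0420, adjusted p = 0.259; rho -0.44, permutation p = 0.154, adjusted p = 0.702), and -0.67 without the 2 farthest. Without HFB 6 and CTL 14 this r of Hspd1 was only -0.14. It was -0.67 when the other library low in Hspa9 was left out as well. Both of these settings were chosen after the data were seen. The part of cell makeup in these values was not tested.

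**Figure D4:**
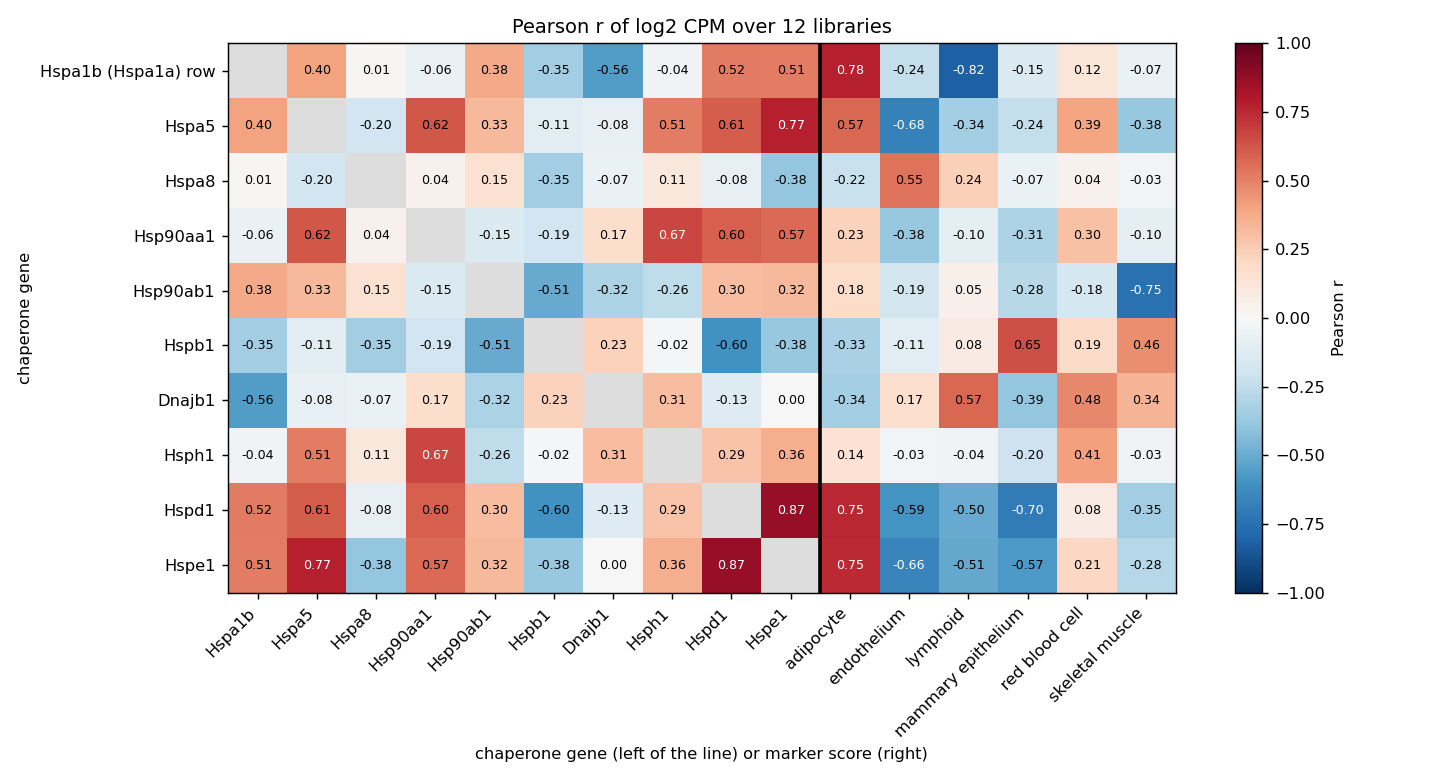
Pearson r of log2 CPM over 12 libraries for each pair of chaperone genes (left of the line) and for each chaperone gene with a marker score (right), from blue at -1 to red at 1. The values of Hspd1 with Hspe1 (0.87) and of the Hspa1b row with the lymphoid score (-0.82) passed adjustment over the 105 relations.

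The wider chaperone network was read from lists of 102 other genes, of which 95 had a row of their own and 90 passed the filter on low counts. No read was counted on Pdia6, and Hspa4l, Hspb3, Hsf4 and Ern1 had too few counts. Of the 90 genes, 0 passed adjustment and 1 had an unadjusted p under 0.05 in edgeR, or 1.11% against 2.34% of all genes. At that level DESeq2 counted 2 of them and 271 of all genes, and limma-voom 3 of them and 613 of all genes. The fold change was above 0 for 47 and below 0 for 43 of the 90, with a median of 0.0057.

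The gene with the small p was Sdf2l1, which helps Hspa5 to keep proteins soluble in the endoplasmic reticulum. It lay between 24.7 and 50.1 CPM in HFB with a median of 32.2 CPM, and between 17.8 and 33.1 CPM in CTL with a median of 21.9 CPM. All 6 HFB libraries were above the CTL median, and the diets overlapped. The highest library was HFB 6 in HFB and CTL 14 in CTL. Its log2 fold change of 0.51, with a 95% confidence interval from 0.03 to 0.98, did not pass adjustment (edgeR, unadjusted p = 0.0376, adjusted p = 0.999). The unadjusted p of Sdf2l1 was under 0.05 in 13 of 22 alternatives. In edgeR it was 0.0963 without HFB 6, 0.0698 with the muscle score as a covariate and 0.0147 without CTL 14. In the list that holds Sdf2l1, of folding and unfolded protein response genes, 15 were tested. Of these 1 had an unadjusted p under 0.05, or 6.67% against 2.34% of all genes. The median log2 fold change of the list was -0.0018. The leading genes of that list, Calr and P4hb, a lectin chaperone and a disulfide isomerase, had log2 fold changes of 0.07 and -0.02 (edgeR, unadjusted p = 0.658 and 0.874).

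In the HSP70 and HSP110 list 0 of 8 genes were at an unadjusted p under 0.05 and the median log2 fold change was -0.12. Hspa4, an HSP110 relative, had a log2 fold change of -0.09 (edgeR, unadjusted p = 0.481). Hspa9, the HSP70 of mitochondria, had 15 counts in HFB 6, 92 in HFB 5 and 124 in CTL 14, against between 369 and 562 in the other 9 libraries. Its CPM was 6.01 in HFB 6, 35.6 in HFB 5 and 43.7 in CTL 14, and between 146 and 231 elsewhere. So libraries of both diets were low, and its log2 fold change of -0.12 had a 95% confidence interval from -1.44 to 1.20 (edgeR, unadjusted p = 0.847). Its SD about the diet means, 1.55, was above 98.5% of the genes tested. Of the chaperones of the same compartment, Hspd1 had its 3 lowest levels in these libraries (237 CPM in HFB 6, 292 in HFB 5 and 223 in CTL 14), and Hspe1 was lowest in HFB 6 and CTL 14 (208 and 243 CPM) but at 361 CPM in HFB 5.

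Among J proteins 0 of 18 genes were at an unadjusted p under 0.05 (median log2 fold change -0.03), with Dnaja1 at 0.02 and Dnaja2 at -0.03, both partners of HSP70. Nucleotide exchange factors had 0 of 8 (median 0.09), with the mitochondrial Grpel1 at 0.15 and Bag1 at 0.14. The HSP90 list had 0 of 12 (median 0.04), and its cochaperone Ptges3 was at -0.02. The list of heat shock factors and regulators had 0 of 5 (median 0.05), with Hsbp1, a binder of heat shock factor, at 0.05 and the ubiquitin ligase Stub1 at 0.22. For the TRiC chaperonin and prefoldin, which fold actin and tubulin, the count was 0 of 12 (median 0.06), and its subunits Cct5 and Cct4 were at 0.02 and 0.09. Mitochondrial folding and proteases had 0 of 6 (median -0.04), with the proteases Lonp1 at 0.02 and Yme1l1 at -0.15.

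Small heat shock proteins other than Hspb1 had the highest median, 0.32 over 6 genes, with 0 at an unadjusted p under 0.05. Of the 6, 5 were above 0, as were 4694 of all 9382 genes tested. Among these 5 was the gene listed as Hspb11 (0.14), matched by an older symbol and now called Ift25. The median SD about the diet means was 0.59 for the list and 0.40 for all genes tested. Cryab, a crystallin abundant in muscle, ran from 21.8 to 96.7 CPM in HFB and from 33.2 to 83.9 CPM in CTL, and Hspb6 from 28.4 to 87.8 CPM and from 28.6 to 71.2 CPM. Both had a log2 fold change of 0.41 (edgeR, unadjusted p = 0.205 and 0.209). Hspb7, named after its values were seen, went the other way at -0.80 (edgeR, unadjusted p = 0.129), the largest change and the smallest p of the list. Skeletal muscle markers, all 12 with a row and none at 0 throughout, summed to between 259 CPM in CTL 10 and 9412 CPM in HFB 6 with a median of 2495 CPM, led by Acta1, and their part in these values was not tested.

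Immediate early genes, which respond to handling and stress within minutes, were counted apart. Of 12 genes 1 was at an unadjusted p under 0.05, or 8.33% against 2.34% of all genes, and the median log2 fold change was 0.11. This was Dusp1, a phosphatase of MAP kinases, with 87.0, 157 and 235 CPM in HFB and 89.8, 118 and 141 CPM in CTL as the lowest, median and highest level. Of its HFB libraries 5 of 6 were above the CTL median, and the log2 fold change of 0.49 did not pass adjustment (edgeR, unadjusted p = 0.0326, adjusted p = 0.999). Its unadjusted p was under 0.05 in 17 of 22 alternatives and smallest, 0.000546, in limma-voom, and with 1 library left out the fold change ran from 0.35 to 0.62. Jund, a subunit of AP-1, had a log2 fold change of 0.51 with a 95% confidence interval from -0.30 to 1.33 (edgeR, unadjusted p = 0.195). Of the 12 genes 7 were above 0 and 5 below. Egr1, named after its values were seen, had the largest change of the list, -0.54 (edgeR, unadjusted p = 0.297).

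**Figure D5:**
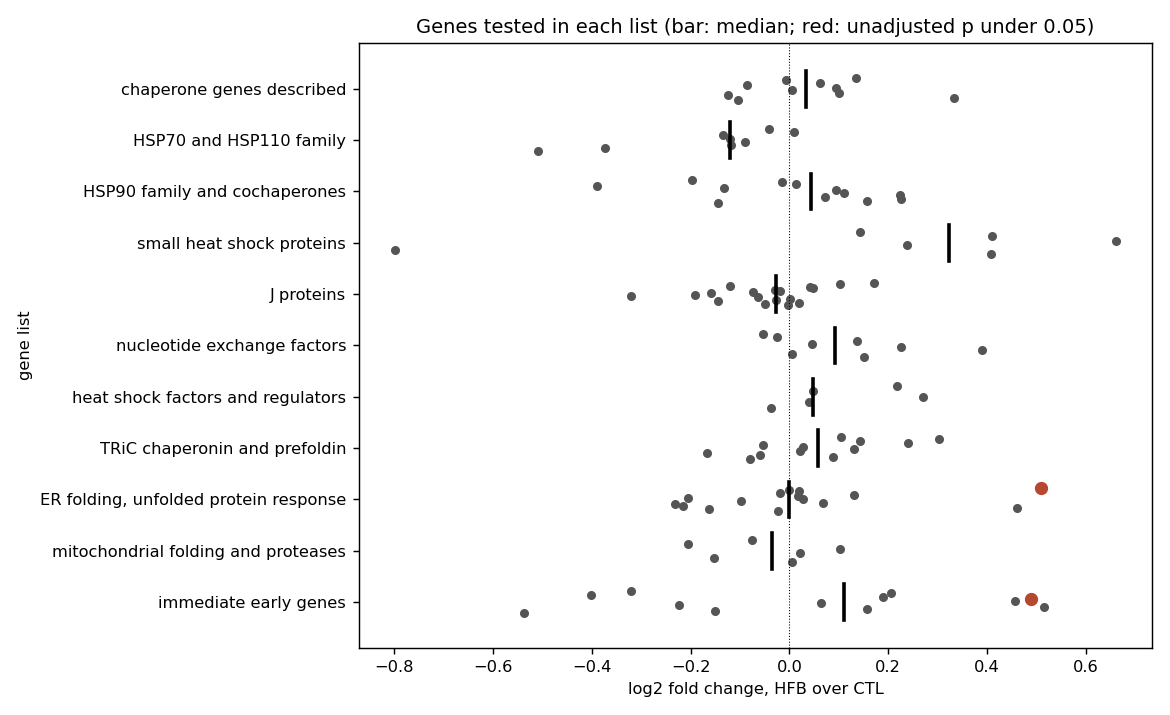
Log2 fold change of HFB over CTL (x axis) for each gene tested in each list (y axis), with the list's median as a bar. Most points lie within 0.5 of 0, and Sdf2l1 (0.51) and Dusp1 (0.49) are the genes in red with an unadjusted p under 0.05.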

How the data were processed

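RNA of 12 libraries labelled as mammary gland was sequenced, and the authors deposited raw read counts per gene by Entrez identifier. The submitters' processing notes name bcl2fastq, CASAVA 1.8, TopHat, DESeq and the build rn4; the handling of reads shared between gene copies and the use of strand are not given in the sources used here. Symbols came from the RefSeq gene table of GRCr8 (16351 of 16511 genes). The chaperone genes and all lists were chosen with earlier results of these data known. The diets were compared by the quasi-likelihood test of edgeR (version 4.0.16, run under R version 4.3.3) after TMM scaling and filterByExpr; p-values were adjusted by Benjamini-Hochberg and called under 0.05, and the test was tested on simulated data. Named in each list were the 2 genes with the highest mean CPM and those with an unadjusted p under 0.05 (at most 3); the lists are HSP70 and HSP110, HSP90, small heat shock proteins, J proteins, nucleotide exchange factors, heat shock factors, TRiC and prefoldin, endoplasmic reticulum folding, mitochondrial folding and immediate early genes. For those of the 10 genes whose correlation with another of the 10 is described, the 3 genes with the highest rho were named, except for Hsph1, where they are not reported here. Correlations used log2 CPM with a prior count of 2 and 100000 resamples (scipy 1.17.1). No 2 libraries of a diet were alike within sampling noise, as copies of 1 library would be (chi-square per degree of freedom of 6.69 or more in 30 pairs). Alternatives were DESeq2 1.42.0, edgeR with the size factors of DESeq2 or with upper-quartile factors, all genes unfiltered, a minimum of 10 counts per library, limma-voom (limma 3.58.1) with quality weights, muscle or lymphoid scores as covariates, each library left out and, chosen after seeing the data, HFB 6 and CTL 14, or these and HFB 5, left out.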

Additional observations from a re-analysis of the deposited data

Results flagged for a closer look

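The level of Hspa8 in HFB 5, 35.5869 CPM, lay far below the nearest other HFB library at 48.1 CPM, and in CTL 8, 35.9665 CPM, far below the nearest other CTL library at 52.7 CPM. The total count of HFB 1, 2320267, was far below the next HFB library, and that of CTL 7, 2944680, far above the next CTL library. Chance gives such a gap in about 1 in 20 groups, and 4 were found in the 22 groups examined, where about 1.1 would arise by chance. The causes were not tested.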

How the results depend on the processing

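No gene passed adjustment in edgeR, DESeq2 or limma-voom under any of the 22 alternatives run, with between 135 and 613 genes at an unadjusted p under 0.05. That number was 271 in DESeq2, 613 in limma-voom, 193 with the muscle score and 338 with the lymphoid score. It was 431 without HFB 6 and CTL 14 and 509 without HFB 5 as well (these last 2 chosen after seeing the data). With 1 library left out it lay between 135 and 587. Of the chaperone genes 0 or 1 were at that level with 1 library left out, and of the other network genes between 0 and 3. The network count was 2 in DESeq2, 3 in limma-voom, 0 with the muscle score, 2 with the lymphoid score and 2 without HFB 6 and CTL 14. The causes were not tested.

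The fold change kept its direction under all 22 alternatives for 5 of the 10 chaperone genes (Hspa8, Dnajb1, Hsph1, Hspd1 and Hspe1). With 1 library left out their log2 fold changes ran from -0.19 to -0.03, 0.10 to 0.19, -0.16 to -0.03, 0.0084 to 0.19 and 0.02 to 0.21 in this order. For 4 others it ran from -0.28 to 0.0622 for the Hspa1b row, from -0.0949 to 0.0598 for Hspa5, from -0.0041 to 0.11 for Hsp90aa1 and from -0.0477 to 0.0435 for Hsp90ab1. Hspa5 turned to -0.0263 with upper-quartile factors and to -0.0124 with a minimum of 10 counts per library. Hsp90ab1 turned to 0.0003 with no filter, 0.0439 in limma-voom, 0.0101 with the muscle score, 0.0653 without HFB 6 and CTL 14 and 0.0687 without HFB 5 as well. Hspb1 turned to -0.0611 without these 3. The causes were not tested.

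For Hspd1 with Hspe1 r passed adjustment at 0.87 with a prior count of 0.5 (adjusted p = 0.0163) and at 0.86 with the size factors of DESeq2 (adjusted p = 0.0247). It was 0.87 as deviations from diet means, 0.69 without the 2 libraries farthest on the x axis, 0.69 without HFB 6 and CTL 14 and 0.86 without HFB 5 as well, none past adjustment. For the Hspa1b row with Hsph1 r turned to 0.0829 without the 2 farthest. The SDs between glands stayed within 1.5 times in all 14 alternatives. No paired analysis was possible because each library number occurs in a single diet. Levels near the floor of 3 counts cannot be resolved at this depth, and with 6 glands per diet the intervals printed set the size of change that could be missed.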

Other observations

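The low level of Hspa9 in HFB 5, HFB 6 and CTL 14 was shared by many genes, a pattern looked for after its values were seen. Of the genes tested, 235 others (2.5%) had a Pearson r above 0.95 with Hspa9 over the 12 libraries and 82 (0.874%) had one below -0.95. The closest was Rap1b (r 0.99), a small GTPase, with 8 counts in HFB 6, 30 in HFB 5 and 57 in CTL 14 and at least 119 elsewhere, followed by Ankh, Csnk1a1, Irak1 and Kpnb1. In the chaperone network the J proteins Dnajb4 (r 0.99) and Dnaja4 (r 0.96) and the mitochondrial unfoldase Clpx (r 0.98) were among these 235. The correlations describe libraries picked out by Hspa9 itself and carry no test. Hspb1 was highest in HFB 5, HFB 6 and CTL 14, the last at 254 CPM. What sets these 3 libraries apart was not tested.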
